A study of Fragaria hybrid cultivar with 9 samples.

Results

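In petals of the pink-flowered strawberry cultivar 'Sijihong', 25 of the 1660 distinct miRNA sequences in the table bore a family number of 5 digits, that is 10000 or higher. They were found by their names alone, as every entry in which miR or MIR was followed by exactly 5 digits. The 25 sequences came from 38 of 1876 lines, stood under 28 of 1703 names, and fell into 13 families. Small RNA was sequenced from petals of young buds (PF_L), of buds whose coloration was beginning (PF_Z) and of big buds (PF_D), each as 3 biological replicates. All 9 libraries came from this 1 cultivar, a hybrid of Fragaria and Potentilla grown in the open, with no treatment or altered gene in any group. The values are normalized reads, and a single read (1 read) counted for 0.713 to 0.882 of them at PF_L, 1.05 to 1.09 at PF_Z and 1.07 to 1.27 at PF_D.

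Plant miRNAs are short RNAs that DICER-LIKE enzymes cut out of a folded precursor. An ARGONAUTE protein holds the miRNA and uses it to find mRNAs with a matching site, which are then cleaved or less translated. Some families, such as miR156, miR159 and miR166, are shared by most land plants, and their targets include regulators of flower and organ development. miRBase numbers families in the order in which they are registered, so the families with the highest numbers were registered late, and many of them have been described in a single species or a few related ones. No target or role is assigned here to any of the 13 families.

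The members were named after apple (prefix mdm, 19 sequences of 8 families), Lotus japonicus (lja, 4 sequences of 3 families) and soybean (gma, 2 sequences of 2 families). No name in the whole table carried the prefix of woodland strawberry (fve). In 21 of the 25 the name was that of a precursor arm (MIR with p5 or p3), and in 4 it was that of a registered mature miRNA. A suffix such as 1ss2GA marks 1 base that differs from the registered sequence, here at position 2. By these suffixes 17 members differed at 2 bases, 5 at 1 base and 3 at none (mdm-MIR11004-p3, mdm-miR10996b and mdm-miR11011a). Most members were 21 nt long (16 of 25), 3 were 24 nt and 6 had other lengths between 18 and 22 nt. Their first base was T in 10, A in 9, C in 4 and G in 2.

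The sequences below are those that the results turn on, together with their closest relatives. They are printed 5′ to 3′ with T for U as deposited, and the capitals mark the seed, bases 2 to 8. The first set holds 2 pairs whose names give opposite arms of a precursor but whose bases are nearly or wholly shared.
mdm-MIR11004-p5_1ss2GA: tACTATCCtacctgagctttt
mdm-MIR11004-p3: tGCTATCCtacctgagctttt
mdm-MIR11010-p5_2ss21TC22GT: aGCTGGGAgttgttctgcaact
mdm-MIR11010-p3_2ss21TC22GT: aGCTGGGAgttgttctgcaactag
The second set holds the miR11011 family, in which the b forms overlap one another and miR11011a does not overlap them.
mdm-MIR11011b-p3_2ss14AG17TG: cATAGTTTtcagagaagacaa
mdm-MIR11011b-p3_2ss14AG17TC: cATAGTTTtcagagaacacaa
mdm-MIR11011b-p3_1ss17TG: tTGAGGATgcatagttgtcag
mdm-MIR11011b-p5_2ss1AT18TG: tTTGAGGAtgcatagttgtca
mdm-MIR11011b-p5_1ss1AT: tTTGAGGAtgcatagttttca
mdm-miR11011a: aAGTTCATtcaaacaccatgt
The third set holds the most abundant sequence of each of 3 further families and the second form of miR11122.
gma-MIR10418-p5_2ss16TA19TG: aCCTTAAGaatgaagaaagcc
lja-MIR11122-p3_2ss3AC18CA: aACCTTGAccatgtcaaactt
lja-MIR11122-p5_2ss14CA18CA: tTGACCATgtcaaacttatc
mdm-MIR10982a-p3_2ss5TC23GA: aGCTCCAAttgaatgaacttgaag

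Within the families, 10 pairs of members overlapped by at least 12 nt with at most 1 mismatch. The miR11004 pair differed by A2G, with positions counted from the 5′ end of mdm-MIR11004-p5_1ss2GA, so that the difference falls in the seed. The 22 nt form of miR11010 was identical to the first 22 bases of the 24 nt form, and the forms share the seed GCTGGGA. mdm-MIR11011b-p3_1ss17TG and mdm-MIR11011b-p5_2ss1AT18TG share 20 nt with their ends shifted by 1 base, which gives them different seeds. The remaining b forms of miR11011 differed by single bases, G17C between the pair with the seed ATAGTTT and G18T between the pair with the seed TTGAGGA. A further pair, mdm-MIR11004-p3_2ss5GC17TC_1 and mdm-MIR11004-p3_2ss5GC17TC_2, was the same sequence with 18 and 19 nt, had the same value in all 9 libraries and never exceeded 1 read. How the pipeline divided reads among such overlapping sequences is not given in the sources used here, so their separate values are uncertain.

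Outside the 13 families, 1 member had a near match. Over at least 18 nt, the closest other sequence differed at 4 to 7 bases for 24 of the members, with a median of 6 mismatches over all 25. The exception was mdm-miR11011a, which over 18 nt differed by T9C alone (counted from its own 5′ end) from an entry named after a grapevine miRNA.
vvi-miR3623-5p_L-1_1ss17GA: cACAAGTTcatccaaacacca
A seed was shared with a conserved family in 1 case. mdm-MIR11004-p3 shares GCTATCC with csi-miR390a-3p_2ss15AG21AC but differs from it at 7 of 21 positions.

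The 25 sequences were scarce. Their summed level was 114 ± 27.7 normalized reads at PF_L, 145 ± 31.9 at PF_Z and 135 ± 9.43 at PF_D (SD, n = 3 each). That was 0.0121% ± 0.00344, 0.0154% ± 0.00411 and 0.0108% ± 0.00101 of all listed reads, while the 402 sequences of conserved families held 90.0% ± 0.718, 87.0% ± 1.42 and 84.1% ± 0.228. The share of the members ranged from 0.00915% (95% Wilson interval 0.00745% to 0.0111%) in PF_L 1 to 0.0199% (0.0171% to 0.0232%) in PF_Z 2. It rested on 96 to 197 recovered reads per library, out of 751798 to 1239877, and the intervals cover counting error only. The stages overlapped in this share, and the conserved families exceeded the members by 4292-fold to 9925-fold in every library. In whole petals, fewer cells that hold a miRNA and less of it per cell cannot be told apart, and the tissue could not be checked against marker genes, since the table holds miRNAs alone.

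Sequence by sequence, the median member was level with the median of other named families and lay below that of conserved ones. The median of their mean level over the 9 libraries was 1.30 normalized reads, against 6.59 for the conserved families, 1.30 for 269 sequences of other named families and 2.11 for 964 predicted miRNAs. With conserved families restricted to the most widely shared, 318 sequences, their median was 9.07. A mean of at least 5 was reached by 20.0% of the members (5 of 25), against 53.2% of conserved, 23.0% of other named and 22.8% of predicted sequences. No member reached a mean of 50, against 30.3% of conserved sequences. Across stages, the median member stood at 0.826, 1.61 and 1.43 normalized reads in PF_L, PF_Z and PF_D, and the median conserved sequence at 4.70, 5.76 and 8.73. These are descriptions over sequences that share libraries, and no test was made between the classes.

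**Figure D1:**
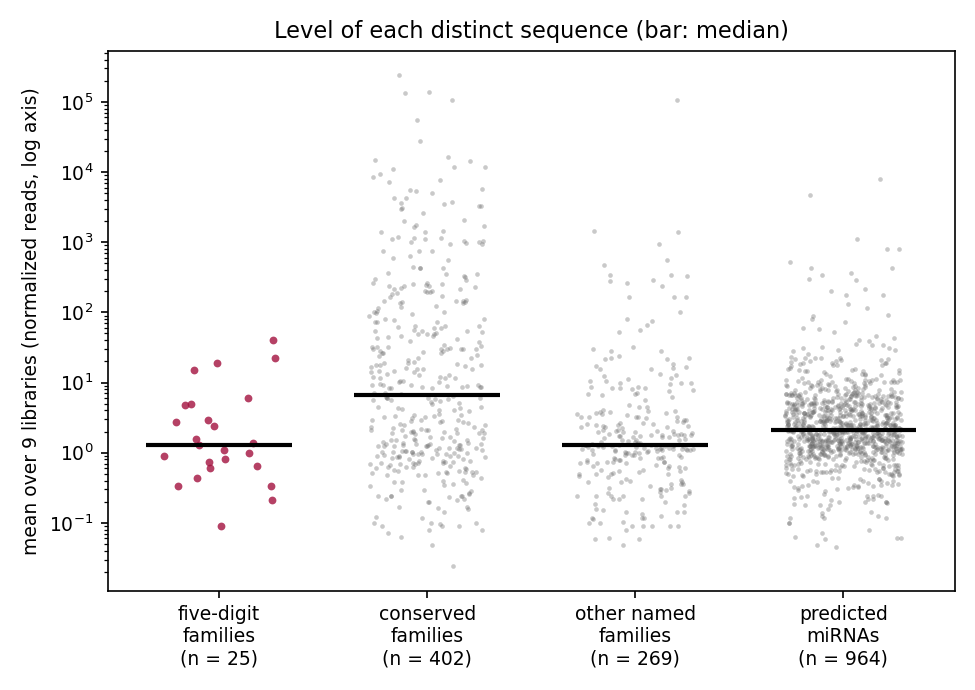
Mean level over the 9 libraries of each distinct sequence (normalized reads, log axis) by class, with a bar at the class median. The 25 members lie between 0.0916 and 39.8 around a median of 1.30, and conserved families reach 239593 around a median of 6.59.

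A length of 24 nt was found in 12% of the members, against 6.22% of conserved, 14.1% of other named and 65.8% of predicted sequences. A length of 21 nt was found in 64.0% of the members and 46.5% of conserved sequences, and was less common in other named sequences than in either. A first base of T was found in 40.0% of the members, 51.0% of conserved and 38.7% of other named sequences. Names of a precursor arm made up 84.0% of the members, 34.8% of conserved and 58.7% of other named sequences. For names with substituted bases these shares were 88.0%, 72.1% and 75.1%. The median GC content was 38.1% in the members, 50% in conserved and 42.9% in other named sequences. In first base, kind of name and GC content the members thus lay nearer to other named than to conserved sequences. In the share of 21 nt they did not. Shares of so few sequences carry wide error, and several members are forms of the same RNA.

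By family, miR11004 held the highest total, with a mean of 46.4 normalized reads over the 9 libraries and rank 45 among the named families. miR11011 followed with 29.7, miR10418 with 22.2 and miR11010 with 21.98. Only 2 of the 31 conserved families present lay below miR11004, namely miR157 with 15.4 and miR403 with 1.18, and the next conserved family above it was miR399 with 102. miR11122 reached 3.999 and miR10982 reached 2.01. The other 7 families, each with 1 sequence, stayed at or below 0.996. Thus the level of the group rested on a few sequences, as mdm-MIR11004-p5_1ss2GA alone held 30.4% of the summed mean level of 131 and the top 4 sequences held 73.2%.

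**Figure D2:**
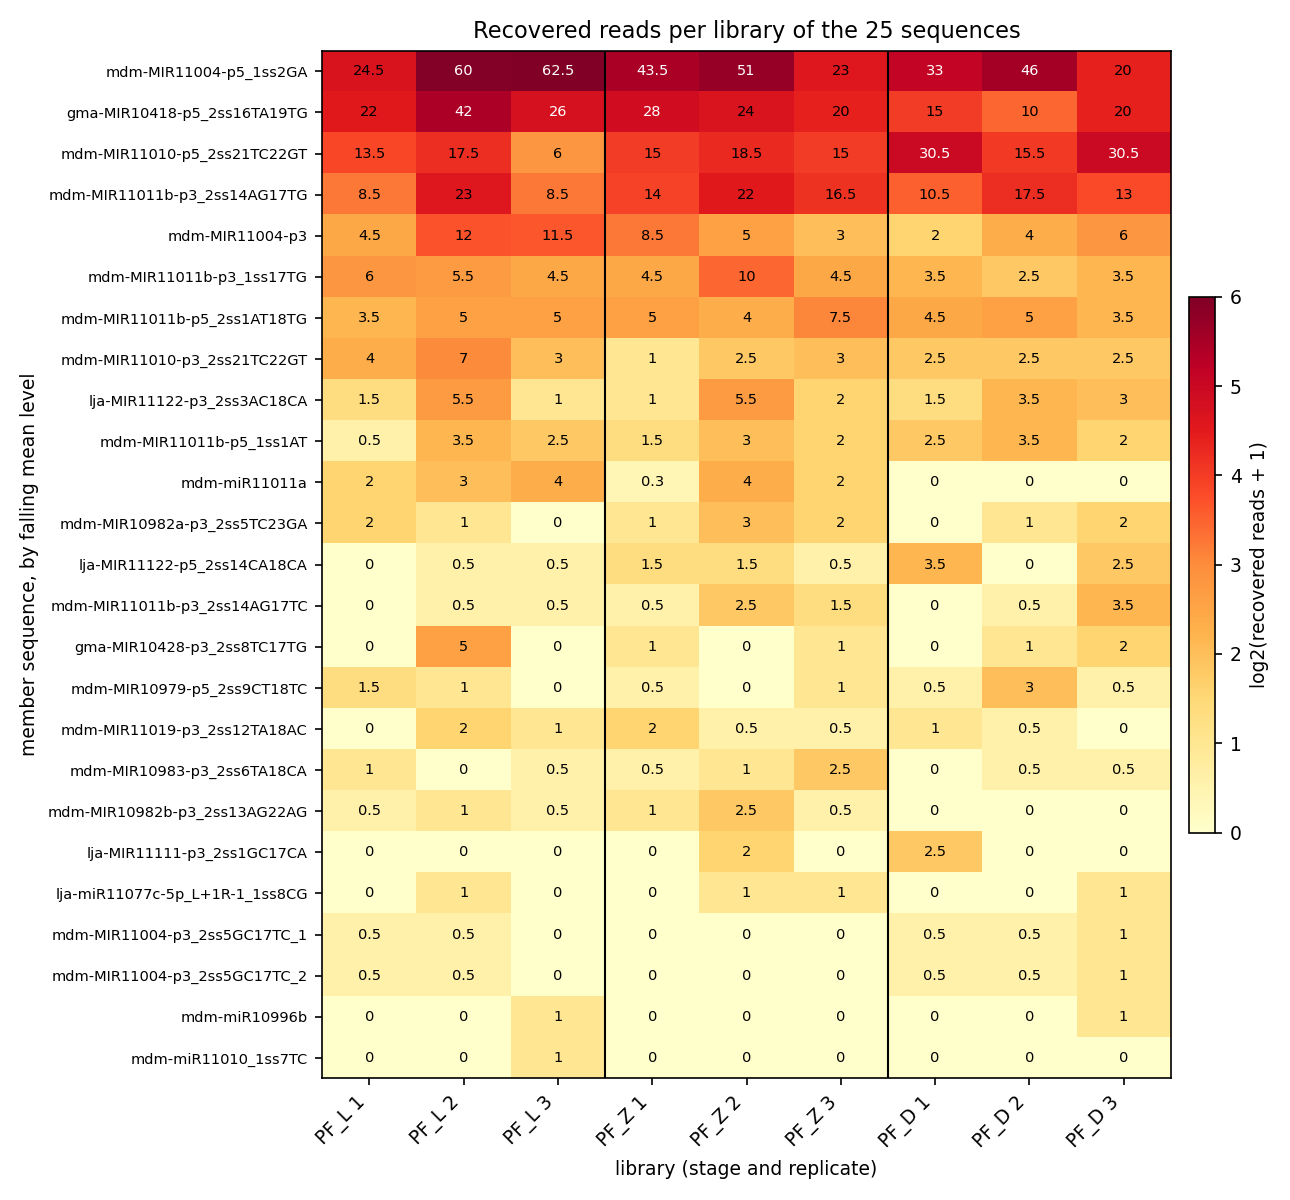
Recovered reads of each of the 25 sequences (rows, by falling mean level) in each of the 9 libraries (columns), with the number of reads printed in each cell and color showing log2(reads + 1). Only the top 4 rows exceed 12 reads in any library, and 11 rows never exceed 3 reads.

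Most members were seen at every stage, though often by 1 read or less, as a part of a read such as 0.5 counted as found. A value above 0 in at least 1 library was found for 24 sequences at PF_L, 21 at PF_Z and 22 at PF_D, and 18 were found at all 3 stages. In all 3 libraries of a stage, 12, 17 and 13 sequences were found, and with at least 3 reads in a library 12 sequences at each stage. A single library held from 16 to 21 members. mdm-miR11010_1ss7TC was found only in PF_L 3, with 1 read, which cannot be told from absence elsewhere, since a count of 0 allows up to 3 reads. The number of distinct names above 0 was 1371 to 1421 for PF_L, 1254 to 1327 for PF_Z and 1162 to 1215 for PF_D libraries, and the part of this difference in the detection of members was not tested.

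Next, levels were compared between stages with limma on log2(value + 1), over the 1554 miRNA names detected in 3 or more libraries. These names stood for 1511 distinct sequences, 22 members among them, and a sequence under 2 names entered the fit under each. lja-MIR11111-p3_2ss1GC17CA, mdm-miR10996b and mdm-miR11010_1ss7TC did not reach that minimum and were not tested. Of the 22 members, 2 were called between PF_D and PF_L at a Benjamini-Hochberg adjusted p under 0.05, 1 higher and 1 lower in PF_D. Over all miRNAs tested 16.3% were called, 8.11% higher and 8.17% lower in PF_D. Among conserved sequences 115 of 360 were called. For 5 of the 22 members the PF_D libraries did not overlap the PF_L libraries, 3 higher and 2 lower, against 36.2% of all miRNAs tested. Of the 3 higher, 2 were the 18 and 19 nt forms of mdm-MIR11004-p3_2ss5GC17TC, which had equal values. Their reads were 0.5, 0.5 and 0 in PF_L and 0.5, 0.5 and 1 in PF_D. Their lack of overlap thus rested on the larger value of 1 read at PF_D. The median log2 fold change of PF_D against PF_L was 0.17 over the members, with 13 above 0 and 9 below, and -0.30 over all sequences tested. By class it was 0.40 over conserved, 0.17 over other named and -0.61 over predicted sequences. The median absolute log2 fold change was 0.48 over the members, 0.87 over conserved, 0.64 over other named and 0.75 over predicted sequences. On log2(value + 1), differences of scarce sequences are drawn toward 0.

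The direction over the members depended on scaling. With library totals set equal, the median log2 fold change of PF_D against PF_L over the members was -0.06, with 9 above 0 and 13 below, and with scaling to valid reads it was 0.48, with 19 above 0 and 3 below. The median over the 501 sequences with a mean of at least 5 was -0.16 as deposited, -0.70 with equal totals and 0.42 with valid reads.

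**Figure D3:**
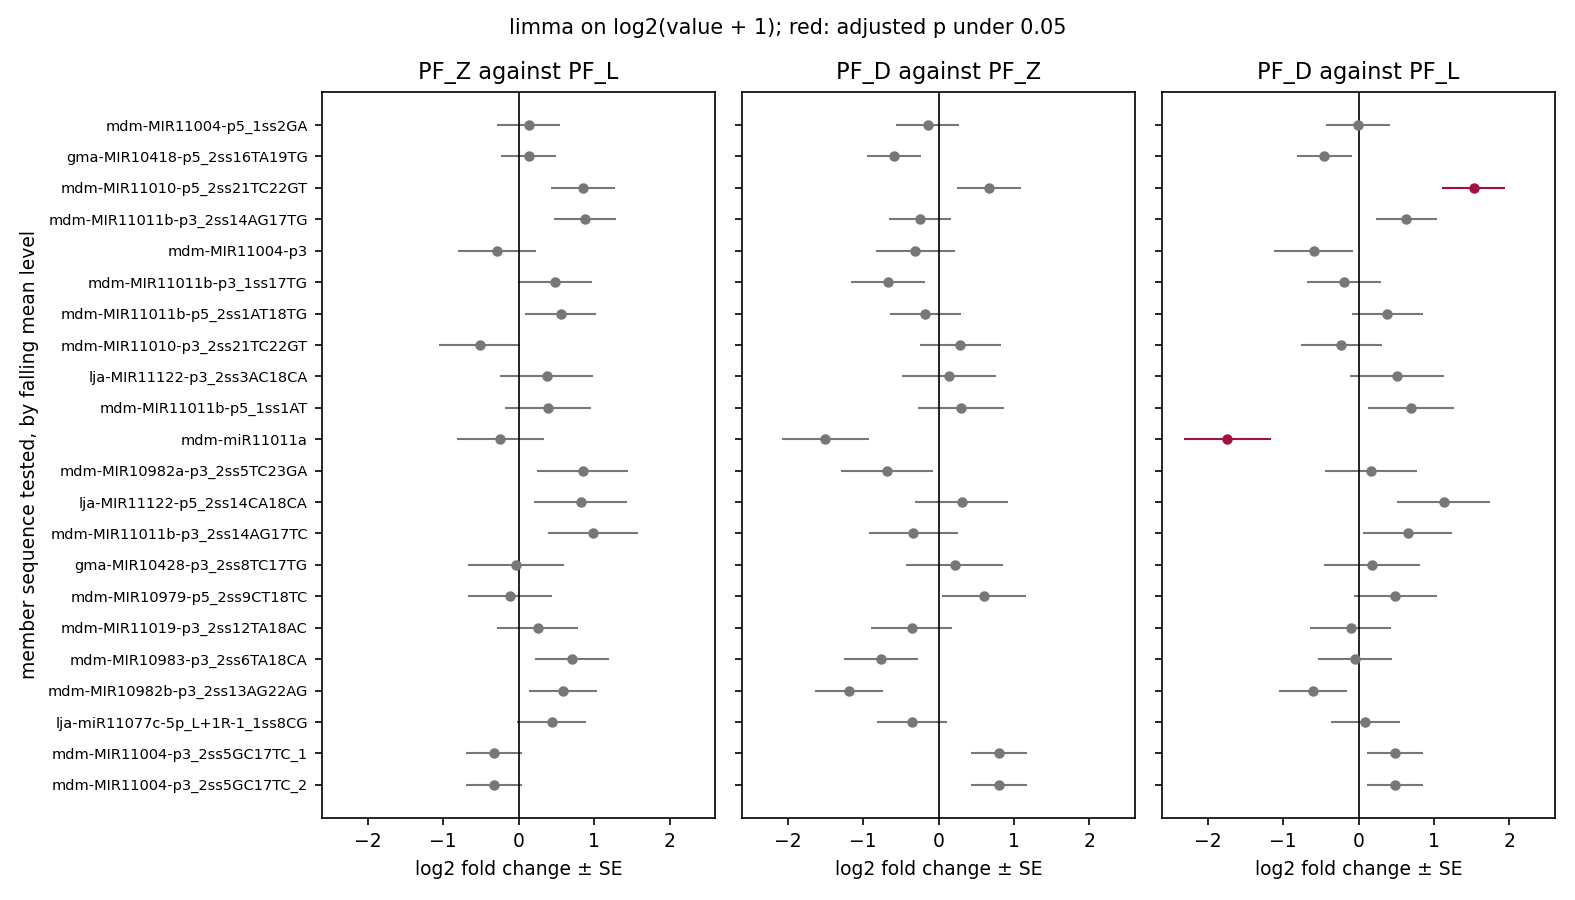
Log2 fold change ± SE of the 22 members tested (limma on log2(value + 1), all 9 libraries) for PF_Z against PF_L, PF_D against PF_Z and PF_D against PF_L, with called members in red. mdm-MIR11010-p5_2ss21TC22GT at 1.53 and mdm-miR11011a at -1.74, a value set by the pseudocount since every PF_D library is at 0, are called between PF_D and PF_L, and each call is lost under some of the alternative settings and without some single libraries.

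The member that rose was the 22 nt form of miR11010. mdm-MIR11010-p5_2ss21TC22GT had 11.9, 12.5 and 4.95 normalized reads in PF_L, 16.3, 20.1 and 15.7 in PF_Z and 38.9, 17.5 and 32.5 in PF_D. These values came from 13.5, 17.5 and 6 reads in PF_L, 15, 18.5 and 15 in PF_Z and 30.5, 15.5 and 30.5 in PF_D. In normalized reads the PF_D libraries and the PF_Z libraries all lay above those of PF_L. PF_D 2 lay within the range of PF_Z, and PF_L 3 was the lowest of the 9. In recovered reads, before scaling, PF_L 2 at 17.5 lay above PF_Z 1, PF_Z 3 and PF_D 2. Such reads are not corrected for depth. PF_L 2 held 1239877 listed reads, the most of the 9 libraries, against 1103233 in PF_Z 1, 751798 in PF_Z 3 and 1102765 in PF_D 2. The level averaged 29.6 ± 10.98 in PF_D and 9.78 ± 4.19 in PF_L (SD, n = 3 each), a log2 fold change of 1.53 ± 0.42 (SE, limma, adjusted p = 0.0199). With PF_Z at 17.4 ± 2.40, the log2 fold change was 0.86 for PF_Z against PF_L (limma, adjusted p = 0.370) and 0.67 for PF_D against PF_Z (limma, adjusted p = 0.421). On recovered reads, PF_D against PF_L gave 1.45 with edgeR (adjusted p = 0.0284) and 1.46 with DESeq2 (adjusted p = 0.0303). The call was lost with equal library totals (0.97, adjusted p = 0.146), without PF_L 3 (1.14, adjusted p = 0.117), without PF_D 1 (1.30, adjusted p = 0.0777) and without PF_D 3 (1.42, adjusted p = 0.0740).

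The 24 nt form, which begins with the same 22 bases, was not called. mdm-MIR11010-p3_2ss21TC22GT had 3.53, 4.99 and 2.47 normalized reads in PF_L, 1.09, 2.72 and 3.15 in PF_Z and 3.19, 2.82 and 2.66 in PF_D. Its libraries overlapped between all stages, and its log2 fold change of PF_D against PF_L was -0.23 (limma, adjusted p = 0.808). The ratio of the 22 nt to the 24 nt form was 3.38, 2.5 and 2 in PF_L, 15.0, 7.40 and 5.00 in PF_Z and 12.2, 6.20 and 12.2 in PF_D. Every PF_Z and PF_D library exceeded every PF_L library in this ratio, whose means were 2.63 ± 0.70 at PF_L, 9.13 ± 5.22 at PF_Z and 10.2 ± 3.46 at PF_D (SD, n = 3 each). An exact two-sided permutation test gave p = 0.1 both for PF_Z against PF_L and for PF_D against PF_L, the smallest p that 3 against 3 libraries can give, and p = 0.7 for PF_D against PF_Z. After adjustment over 6 such tests the exact p was 0.3, 0.3 and 0.8. The ratio was chosen after its values were seen, and its lower term rests on 1 to 7 reads per library.

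**Figure D4:**
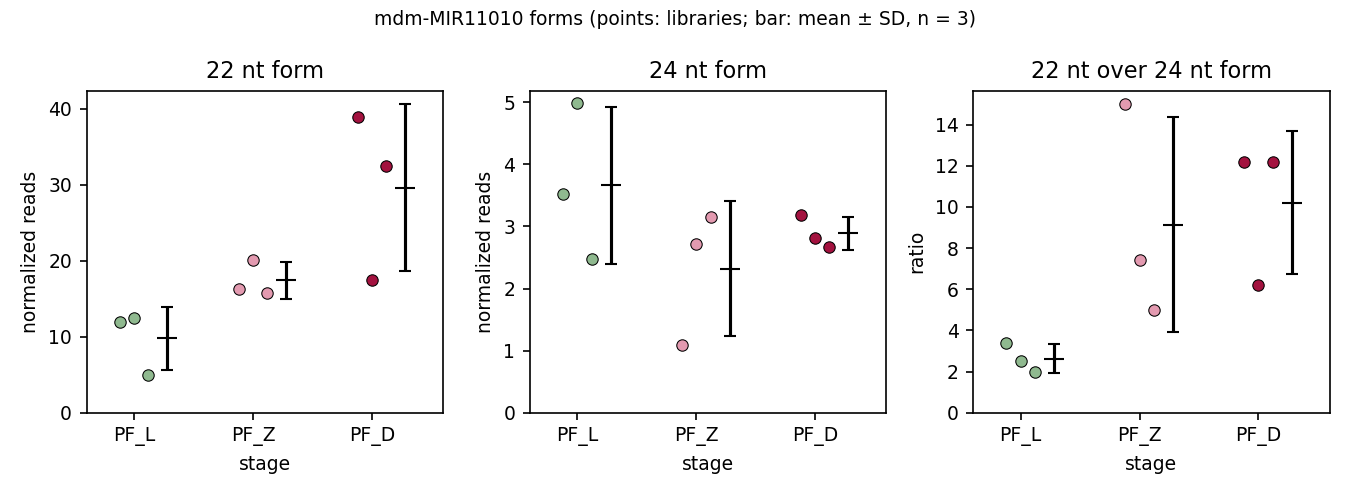
Levels of the 22 nt and the 24 nt form of miR11010 (normalized reads) and their ratio in each library, by stage, with bars for mean ± SD (n = 3). The 22 nt form averages 9.78, 17.4 and 29.6 in PF_L, PF_Z and PF_D, the 24 nt form 3.67, 2.32 and 2.89.

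The member that was lower in PF_D was a registered mature miRNA. mdm-miR11011a had 1.76, 2.14 and 3.299 normalized reads in PF_L, 0.362, 4.36 and 2.10 in PF_Z and 0 in each of the 3 PF_D libraries. These were 2, 3 and 4 reads in PF_L and 0.333, 4 and 2 reads in PF_Z. It was seen in every PF_L and PF_Z library and in no PF_D library. limma on log2(value + 1) gave a fitted difference of -1.74 ± 0.58 (SE, adjusted p = 0.0481) for PF_D against PF_L and of -1.50 (adjusted p = 0.164) for PF_D against PF_Z. A count of 0 allows up to 3 reads, or 3.20 to 3.82 normalized reads in the PF_D libraries, and PF_L averaged 3 reads per library, so the fitted value is set by the pseudocount and is neither a fold nor a bound on one. It was -2.502 with a pseudocount of 0.5 and -0.56 with 5, where the adjusted p was 0.0366 and 0.0940. The adjusted p rose above 0.05 as well with edgeR (0.0651), with scaling to valid reads (0.0768), with no filter (0.0570), with each sequence fitted once (0.0501), with a replicate block (0.0508) and without any 1 of the PF_L libraries (0.0908 to 0.146) or of the PF_D libraries (0.0970 to 0.105).

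The grapevine-named entry that overlaps mdm-miR11011a was also scarce. vvi-miR3623-5p_L-1_1ss17GA had 0, 0.713 and 0 normalized reads in PF_L, 1.45, 3.27 and 3.15 in PF_Z and 1.27, 2.26 and 1.07 in PF_D. It was lowest in PF_L, where it was seen in 1 of 3 libraries, and was present in every library of PF_Z and PF_D. It was not called for PF_D against PF_L (log2 fold change 1.05, limma, adjusted p = 0.196). How reads were divided between it and mdm-miR11011a was not tested.

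The most abundant member did not differ between stages beyond the spread of its replicates. mdm-MIR11004-p5_1ss2GA had 21.6, 42.8 and 51.5 normalized reads in PF_L, 47.3, 55.5 and 24.1 in PF_Z and 42.1, 51.9 and 21.3 in PF_D. Each stage held 1 library between 21.3 and 24.1 and 2 above 42, and the stages overlapped fully. Its log2 fold change of PF_D against PF_L was -0.01 (limma, adjusted p = 0.988), and it changed sign to 0.57 with scaling to valid reads. It ranked 181 of 1660 sequences and exceeded 67.7% of conserved sequences.

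Its close relative mdm-MIR11004-p3, which differs from it by A2G, was less abundant. It had 3.97, 8.56 and 9.48 normalized reads in PF_L, 9.24, 5.45 and 3.15 in PF_Z and 2.55, 4.51 and 6.39 in PF_D, and the stages overlapped. Its log2 fold change of PF_D against PF_L was -0.59 (limma, adjusted p = 0.454). The ratio of mdm-MIR11004-p5_1ss2GA to mdm-MIR11004-p3 was above 1 in all 9 libraries, from 3.33 to 16.5 with a median of 5.44. Its stage means were 5.29 ± 0.254 at PF_L, 7.66 ± 2.54 at PF_Z and 10.4 ± 6.65 at PF_D (SD, n = 3 each), and exact two-sided permutation tests gave p = 0.3 for PF_Z against PF_L, 0.8 for PF_D against PF_Z and 0.4 for PF_D against PF_L. This ratio too was chosen after its values were seen.

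gma-MIR10418-p5_2ss16TA19TG, the second most abundant member, had 19.4, 29.96 and 21.4 normalized reads in PF_L, 30.4, 26.1 and 20.99 in PF_Z and 19.1, 11.3 and 21.3 in PF_D. PF_D held the lowest library, PF_D 2, and the stages overlapped. Its log2 fold change was -0.59 for PF_D against PF_Z (limma, adjusted p = 0.414) and -0.45 for PF_D against PF_L (limma, adjusted p = 0.411), and scaling to valid reads turned the sign of the second to 0.11. It exceeded 61.7% of conserved sequences in mean level.

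**Figure D5:**
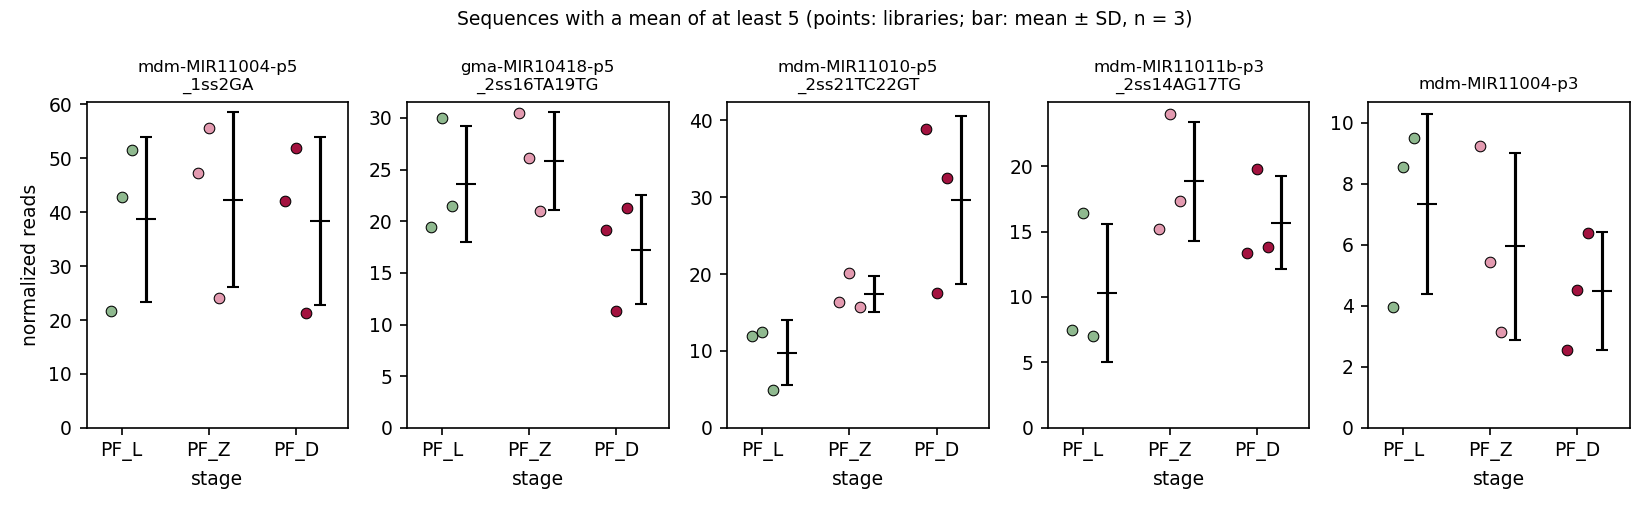
Normalized reads of the 5 members with a mean of at least 5, one panel each, with 1 point per library and a bar for the mean ± SD (n = 3) of each stage. The stages overlap in every panel except that of mdm-MIR11010-p5_2ss21TC22GT, where all PF_Z and PF_D libraries lie above those of PF_L. That separation holds for normalized reads and not for recovered reads before scaling, which are not corrected for depth.

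In the miR11011 family the b forms were measured in every library except the scarcest of them. mdm-MIR11011b-p3_2ss14AG17TG had 7.50, 16.4 and 7.01 normalized reads in PF_L, 15.2, 23.96 and 17.3 in PF_Z and 13.4, 19.7 and 13.9 in PF_D. The lowest values were those of PF_L 1 and PF_L 3, while PF_L 2 lay within the range of the other stages. Its log2 fold change was 0.88 for PF_Z against PF_L (limma, unadjusted p = 0.0454, adjusted p = 0.349) and 0.63 for PF_D against PF_L (limma, adjusted p = 0.307). mdm-MIR11011b-p3_1ss17TG had 5.29, 3.92 and 3.71 normalized reads in PF_L, 4.89, 10.9 and 4.72 in PF_Z and 4.46, 2.82 and 3.73 in PF_D. Its PF_D libraries all lay below its PF_Z libraries, with PF_Z 2 far above the rest, and the difference was not called (log2 fold change -0.67, limma, adjusted p = 0.493). mdm-MIR11011b-p5_2ss1AT18TG, which shares 20 bases with it, had 3.09, 3.57 and 4.12 normalized reads in PF_L, 5.43, 4.36 and 7.87 in PF_Z and 5.73, 5.64 and 3.73 in PF_D. All PF_Z libraries lay above all PF_L libraries in these values, again without a call (0.56, limma, adjusted p = 0.628). In recovered reads they overlapped, with 3.5, 5 and 5 in PF_L and 5, 4 and 7.5 in PF_Z.

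The scarcer b forms averaged 2.36 normalized reads for mdm-MIR11011b-p5_1ss1AT and 1.10 for mdm-MIR11011b-p3_2ss14AG17TC, and neither exceeded 3.5 reads in a library. Thus mdm-MIR11011b-p3_2ss14AG17TG, with a mean of 14.9, was the main form, and the variant that differs from it by G17C was the scarcest. The total of the family, mdm-miR11011a included, was 22.5 ± 5.65 at PF_L, 37.8 ± 10.9 at PF_Z and 28.9 ± 3.33 at PF_D (SD, n = 3 each).

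Among the remaining families, lja-MIR11122-p3_2ss3AC18CA had 1.32, 3.92 and 0.825 normalized reads in PF_L, 1.09, 5.99 and 2.10 in PF_Z and 1.91, 3.95 and 3.20 in PF_D. In PF_L, PF_Z and PF_D alike the library of replicate 2 was the highest, and the stages overlapped. lja-MIR11122-p5_2ss14CA18CA, whose first 17 bases lie within it, had 0, 0.357 and 0.412 normalized reads in PF_L, 1.63, 1.63 and 0.525 in PF_Z and 4.46, 0 and 2.67 in PF_D. PF_Z lay above PF_L in every library by these values, but PF_L 2, PF_L 3 and PF_Z 3 each held 0.5 reads. PF_D 2 was at 0, and the log2 fold change of PF_D against PF_L was 1.13 (limma, adjusted p = 0.222).

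mdm-MIR10982a-p3_2ss5TC23GA, at 24 nt, had 1.76, 0.713 and 0 normalized reads in PF_L, 1.09, 3.27 and 2.10 in PF_Z and 0, 1.13 and 2.13 in PF_D, and the stages overlapped. mdm-MIR10982b-p3_2ss13AG22AG, also 24 nt, had 0.441, 0.713 and 0.412 normalized reads in PF_L, 1.09, 2.72 and 0.525 in PF_Z and 0 in all 3 PF_D libraries. Like mdm-miR11011a it was seen in all libraries of PF_L and PF_Z and in none of PF_D, but it never exceeded 2.5 reads, and it was not called for PF_D against PF_Z (limma, adjusted p = 0.150) or PF_D against PF_L (limma, adjusted p = 0.380).

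The other members had means from 0.0916 to 0.996 normalized reads. They were gma-MIR10428-p3_2ss8TC17TG, mdm-MIR10979-p5_2ss9CT18TC, mdm-MIR11019-p3_2ss12TA18AC, mdm-MIR10983-p3_2ss6TA18CA, lja-MIR11111-p3_2ss1GC17CA, lja-miR11077c-5p_L+1R-1_1ss8CG, the 18 and 19 nt forms of mdm-MIR11004-p3_2ss5GC17TC, mdm-miR10996b and mdm-miR11010_1ss7TC. Among them gma-MIR10428-p3_2ss8TC17TG reached 5 reads in PF_L 2 and was at 0 in PF_L 1 and PF_L 3. mdm-MIR10979-p5_2ss9CT18TC reached 3 reads in PF_D 2. The others stayed at 2.5 reads or less in every library, and none was called in any comparison.

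Between neighboring stages no member was called. For PF_D against PF_Z, 0 of 22 members were called by limma, edgeR and DESeq2, while 3.67% of all miRNAs tested were called by limma. At an unadjusted limma p under 0.05 there were 4 members, against 19.5% of all tested, namely mdm-miR11011a, mdm-MIR10982b-p3_2ss13AG22AG and the 18 and 19 nt forms of mdm-MIR11004-p3_2ss5GC17TC. For 5 members the libraries of PF_D and PF_Z did not overlap, against 20.0% of all tested. Among the 5 were the same 18 and 19 nt forms, which had equal values. The median log2 fold change over the members was -0.21, with 9 above 0 and 13 below, against -0.16 over all sequences tested. By class it was 0.24 over conserved, 0.05 over other named and -0.35 over predicted sequences. The median over the members was -0.54, with 6 above 0 and 16 below, with equal library totals. With scaling to valid reads it was 0.06, with 12 above 0 and 10 below.

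For PF_Z against PF_L, 0 of 22 members were called by limma, edgeR and DESeq2, while 1.16% of all miRNAs tested were called by limma. At an unadjusted limma p under 0.05 there was 1 member, mdm-MIR11011b-p3_2ss14AG17TG, against 14% of all tested. For 4 members all PF_Z libraries lay above all PF_L libraries, against 18.7% of all tested without overlap in either direction. These were mdm-MIR11010-p5_2ss21TC22GT, mdm-MIR11011b-p5_2ss1AT18TG, lja-MIR11122-p5_2ss14CA18CA and mdm-MIR11011b-p3_2ss14AG17TC, the last 2 of them with at most 3.5 reads in a library. In recovered reads, before scaling, the first 2 overlapped between PF_Z and PF_L. In the last 2, the lowest PF_Z library and the highest PF_L libraries held 0.5 reads each. Only the larger value of 1 read at PF_Z set these apart. The median log2 fold change over the members was 0.38, with 15 above 0 and 7 below, against -0.10 over all sequences tested. By class it was 0.12 over conserved, 0.14 over other named and -0.24 over predicted sequences.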

How the data were processed

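Small RNA libraries from petals were made with TruSeq kits and sequenced on an Illumina HiSeq. The authors used ACGT101-miR to discard adapter dimers, junk and reads of common RNA classes or repeats, kept lengths of 18 to 25 nt, matched them to miRBase 22.0 and deposited a normalized read count per miRNA and library. These deposited values are a signal with 1 factor per library, and the formula is not given in the sources used here. After 173 repeated lines were dropped, each distinct sequence was counted once, except that the fits between stages ran over names. The most common value above 0 was taken as 1 read (69.1% to 72.2% of values above 0 were then whole, and 98.3% to 99.4% whole or in steps of 0.5, within 0.01 read). Without molecular identifiers, intervals and the floor of 3 reads cover counting error alone.

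The test between stages was limma 3.58.1 (R 4.3.3, log2(value + 1), mean-dependent prior, 9 libraries, two-sided, Benjamini-Hochberg over 1554 miRNA names), and on recovered reads with edgeR 4.0.16 and DESeq2 1.42.0. A check on simulated data planted changes only in miRNAs with a mean of at least 5, so it does not cover the scarcer members. Pseudocount, filter, scaling, replicate block and leaving out libraries were the alternatives. Python 3.11.15 with numpy 2.4.6, pandas 2.3.3, scipy 1.17.1 and matplotlib 3.10.9 did the rest. Members and lists were chosen with earlier results of these data known. Named members were those called, those with a mean of at least 5 and the most abundant of each family with 2 or more sequences. Other members were named after their values were seen, so that each is accounted for. The p-values set stage differences against the spread between the biological replicates, which limma moderates by the mean-dependent prior.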

Additional observations from a re-analysis of the deposited data

How the results depend on the processing

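Between PF_D and PF_L, 2 members were called, and the same count came with a pseudocount of 0.5, with median-of-ratios scaling and with the 2 stages alone. The count was 1 with a pseudocount of 5, with no filter, with a mean of at least 5, with equal library totals, with valid reads, with edgeR, with DESeq2 and with each sequence fitted once. With the replicate number as a block it was 1, the adjusted p being 0.0225 for mdm-MIR11010-p5_2ss21TC22GT and 0.0508 for mdm-miR11011a. Without 1 library the count was 0 to 2, and 0 without PF_L 3, PF_D 1 or PF_D 3. Over all these settings the adjusted p of mdm-MIR11010-p5_2ss21TC22GT ranged from 0.00263 to 0.146. DESeq2 gave none for mdm-miR11011a, whose adjusted p was 0.0322 with equal library totals, 0.0570 with no filter and 0.0501 with each sequence fitted once. The count stayed at 0 for both neighboring comparisons under every setting. Pairing by replicate number was examined on deviations from the stage means, over 517 miRNAs with a mean of at least 5. In these deviations same-numbered libraries correlated at -0.101 to 0.282. Among libraries of other stages, 4 of 9 correlated best with their own number. With 3 libraries per stage this cannot decide whether replicate numbers pair the libraries.

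Signs turned in comparisons where the member was not called, and the cause was not tested. With valid reads mdm-MIR11004-p5_1ss2GA was at 0.57 for PF_D against PF_L and 0.15 for PF_D against PF_Z, gma-MIR10418-p5_2ss16TA19TG at 0.11 for PF_D against PF_L and mdm-MIR11011b-p3_2ss14AG17TG at 0.038 for PF_D against PF_Z. With equal totals mdm-MIR11004-p5_1ss2GA was at -0.0015 for PF_Z against PF_L, lja-MIR11122-p3_2ss3AC18CA at -0.22 for PF_D against PF_Z (edgeR -0.090) and mdm-MIR10982a-p3_2ss5TC23GA at -0.084 for PF_D against PF_L. Leaving out 1 library, mdm-MIR11004-p5_1ss2GA ranged from -0.23 to 0.48 for PF_Z against PF_L, -0.50 to 0.22 for PF_D against PF_Z and -0.37 to 0.35 for PF_D against PF_L. mdm-MIR11004-p3 ranged from -0.62 to 0.035 for PF_Z against PF_L and -0.63 to 0.022 for PF_D against PF_Z, lja-MIR11122-p3_2ss3AC18CA from -0.11 to 0.79 and from -0.25 to 0.63 in the same comparisons. mdm-miR11011a ranged from -0.70 to 0.29 for PF_Z against PF_L and mdm-MIR10982a-p3_2ss5TC23GA from -0.21 to 0.62 for PF_D against PF_L.

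The share of the members was 0.0128% of the listed reads over 9 libraries, 0.0133% with every line counted and 0.0119% to 0.0132% without 1 library. The strict list lowered the share of conserved families to 66.3%, and on that list the share was lowest at PF_L and highest at PF_D. Members detected per stage fell to 12, 17 and 13 in PF_L, PF_Z and PF_D when all 3 libraries were required and to 12 at each stage when 3 reads were required. Of the 25 members, 11 never exceeded 3 reads in a library, which is what a count of 0 allows.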
